A study of Mus musculus with 16 samples.

Results

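This account covers 9 mouse genes of the NF-κB system, picked by symbol from 55414 genes counted in every file, with earlier results of these data known. They are the subunit genes Nfkb1, Nfkb2, Rel, Rela and Relb and the inhibitor genes Nfkbia, Nfkbie, Nfkbiz and Tnfaip3. All 9 passed the filter on low counts that left 25081 genes for testing. RNA was sequenced at 0, 1, 3 and 5 h after addition of 5 µM actinomycin D, which blocks transcription, to cultured mouse bone marrow cells labelled Nat10-deficient or WT. NAT10 is the enzyme that places N4-acetylcytidine on RNA, and the stated aim was to follow mRNA lifetime. The 8 groups are labelled Nat10-deficient 0, 1, 3 and 5 h and WT 0, 1, 3 and 5 h, with 2 files each. All groups share the culture of lineage-depleted marrow in serum-free medium with growth factors, the sort of HSCs, ERCC spike-in RNA in equal amounts, and Smart-seq2 libraries of polyadenylated RNA. The 0 h groups come from the start of the block. The labels name no strain, age or Cre driver, and the titles name 32D, a mouse myeloid progenitor line, where the cell type is given as LT-HSCs, that is long-term haematopoietic stem cells.

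NF-κB proteins are dimers of the subunits encoded by Rela (p65), Rel (c-Rel), Relb, Nfkb1 (p105, cut to p50) and Nfkb2 (p100, cut to p52). In resting cells IκB proteins such as IκBα (Nfkbia) and IκBε (Nfkbie) hold the dimers in the cytoplasm, and kinase signals from cytokine and Toll-like receptors lead to their destruction. The freed dimers switch on target genes that include their own inhibitors, so Nfkbia and Tnfaip3 (A20, a ubiquitin editor that shuts down the upstream signal) form negative feedback. Nfkbiz encodes IκBζ, a nuclear IκB that acts with p50 on a secondary set of targets. The feedback mRNAs are known to be short-lived, and in the marrow the pathway shapes stem cell survival and the response to inflammation.

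The promoters are shown because several of these genes are themselves NF-κB targets. RefSeq promoter windows (GRCm38.p6, 250 bases before to 50 after the start) were available for 6 of the 9 members, 9 windows in all, and 7 of the 9, from 5 genes, held the 10-base classical κB consensus on either strand. Among all 32851 windows of the same 300 bases, 4.51% held it. Of the member windows 2, both of Nfkb2, overlap and share a match, so they do not count as separate finds. Rela had no match in its window. The stretches around the matches in the first window listed for each gene follow, 5′ to 3′ on the gene's strand, with the matches in capitals.
Nfkbia, chr12:55492647-55492696, minus strand: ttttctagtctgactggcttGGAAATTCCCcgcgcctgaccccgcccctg
Nfkbie, chr17:45555574-45555623, plus strand: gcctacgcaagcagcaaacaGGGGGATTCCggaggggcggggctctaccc
Tnfaip3, chr10:19015393-19015555, minus strand: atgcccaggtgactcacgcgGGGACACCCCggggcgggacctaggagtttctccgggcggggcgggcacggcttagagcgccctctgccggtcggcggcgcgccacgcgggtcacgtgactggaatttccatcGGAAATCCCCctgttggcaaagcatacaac
Nfkb2, chr19:46304678-46304755, plus strand: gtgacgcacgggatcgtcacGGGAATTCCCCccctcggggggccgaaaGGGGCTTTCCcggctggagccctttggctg
Rel, chr11:23771031-23771081, minus strand: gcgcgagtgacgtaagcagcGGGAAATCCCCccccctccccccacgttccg
In Nfkb2 the first run of capitals and in Rel the only one hold 2 overlapping matches. Tnfaip3 held 2 separate matches, and a single match stood in Nfkbia and in Nfkbie. The 2 other windows of Nfkb2, which overlap, held matches too, a shared one among them, not shown, and the other window of Tnfaip3 held none.

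The end of the mRNA is shown because AU-rich elements there are known to mark mRNAs for rapid decay. The AU-rich nonamer TTATTTATT, searched on the mRNA strand of the 3′UTR (GENCODE M21, GRCm38), stood in 3 members and in 7.67% of 21007 genes. It is shown for Nfkbia and Rel.
Nfkbia, chr12:55489610-55489634, minus strand: accacgttTTATTTATTgtgctttt
Rel, chr11:23737836-23737860, minus strand: cccagactTTATTTATTttttttag
The capitals mark the nonamer. Long 3′UTRs hold it more often: among genes with a 3′UTR within 20% of the same length, the share was 2.71% for Nfkbia and 21.9% for Rel. The shorter pentamer ATTTA, part of the nonamer, occurred 12 times in Rel, 5 times each in Tnfaip3 and Nfkb1, 4 times in Nfkbiz, 2 times in Nfkbia and 1 time in Nfkb2. No match stood in the 3′UTRs of Nfkbie, Rela and Relb. With 6 of 9 members it was about as frequent as in all genes, of which 65.2% held it. Among genes with a 3′UTR of like length, 35.5% held at least as many as Rel, 29.8% as many as Tnfaip3, 29.2% as many as Nfkbiz, 23.8% as many as Nfkbia and 4.45% as many as Nfkb1.

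Several facts of the libraries bear on every value. The 2 files of each of the 8 groups name the same alignment in their headers, and a chi-square over genes divided by its degrees of freedom was 1.43 to 1.81 within these pairs, against 47.9 to 256 between neighbouring times. The p-values therefore measure the spread between files, which may be technical, and separation of files between labels is to be read in the same way. Total counts were 13516675 to 17274128 in files labelled Nat10-deficient and 9142413 to 14000072 in those labelled WT. ERCC spike-ins took 0.0221% to 0.129% of counts in files labelled Nat10-deficient and 1.79% to 2.92% in those labelled WT. Nat10 itself, counted over the whole gene and so no check of a deletion of part of it, had 88.3 and 91.3 CPM (counts scaled to TMM library sizes) at 0 h in files labelled Nat10-deficient, against 71.8 and 71.0 CPM in those labelled WT. It was also the higher at 3 and 5 h, so the genotypes are given here as labelled. Markers of HSCs were detected in all groups, 10 of 10 above 0. Their summed level at 0 h was 775 to 776 CPM in files labelled Nat10-deficient and 1739 to 1746 CPM in those labelled WT. Immunoglobulin genes took a mean of 6.44%, 9.02%, 24.5% and 3.90% of gene counts at 0, 1, 3 and 5 h in files labelled Nat10-deficient, against 3.62%, 25.6%, 49.4% and 59.5% in those labelled WT. The part of other cells in the results was not tested, and in such bulk samples fewer cells of a type cannot be told apart from less RNA per cell.

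At 0 h, before any block, 8 of the 9 members were higher in cells labelled Nat10-deficient on the TMM scale, which sets each gene against the bulk of the others, and Nfkbiz was lower. The shares of all 25081 genes called were 36% higher and 24.2% lower (edgeR quasi-likelihood F test, adjusted p under 0.05). The median log2 difference was 1.02 for the members and 0.10 for all genes. With scaling on long-lived mRNAs 7 of the 9 were higher and 1 lower, and with scaling on ERCC spike-ins all 9 were higher, as were nearly all genes, since that scale raised every gene by a log2 of 6.13. When the 2 files of each group were summed and the labels were compared by straight lines over the hours (edgeR), 0 of the 9 passed and 3 had an unadjusted p under 0.05. All markers in 3 lists of other cells were higher under the Nat10-deficient label at the same time: 4 of 4 of eosinophils, with sums of 1093 to 1103 CPM in files labelled Nat10-deficient against 176 to 177 CPM in those labelled WT, 5 of 5 of mast cells and basophils, with 289 to 294 CPM against 81.7 to 85.7 CPM in those labelled WT, and 8 of 8 of plasma cells. The other lists were mixed or partly called. Higher were 5 of 6 markers of B cells, 4 of 5 erythroid ones and 4 of 6 of macrophages and monocytes. For megakaryocytes it was 2 of 3 and for T cells 1 of 4, with 0 lower in these 5 lists. Neutrophils had 2 of 6 higher and 1 lower, and dendritic cells 2 of 4 higher and 1 lower. Of 10 HSC markers 9 were lower on the TMM scale. No marker of eosinophils or of mast cells and basophils was at 0 in these files, and their part in the members' values was not tested.

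Among the inhibitors, Nfkbia (ENSMUSG00000021025, GRCm39 chr12:55536195-55539432) was the most abundant member. It had 779 and 784 CPM in files labelled Nat10-deficient, against 358 and 358 CPM in those labelled WT. The files did not overlap, as for all 9 members at 0 h, and the log2 difference was 1.13 ± 0.03 (SE, adjusted p = 1.46e-106). Nfkbie (ENSMUSG00000023947, chr17:45866629-45874095), the slower-acting cytoplasmic inhibitor, had 93.2 and 88.5 CPM in files labelled Nat10-deficient, against 44.5 and 44.3 CPM in those labelled WT. Tnfaip3 (ENSMUSG00000019850, chr10:18876658-18891405) had 232 and 226 CPM in files labelled Nat10-deficient, against 156 and 151 CPM in those labelled WT. Their log2 differences were 1.03 ± 0.06 (adjusted p = 5.96e-43) and 0.58 ± 0.04 (adjusted p = 2.88e-32). Nfkbiz (ENSMUSG00000035356, chr16:55631738-55659262) went the other way on this scale, with 284 and 293 CPM in files labelled Nat10-deficient, against 378 and 370 CPM in those labelled WT. Its log2 difference was -0.37 ± 0.03 (adjusted p = 1.97e-25), while on the ERCC scale it was 5.77 and in the fit of summed files 0.10. The nuclear inhibitor thus stood apart from the other 3 inhibitors at 0 h on the TMM scale.

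Of the subunits, Relb (ENSMUSG00000002983, chr7:19340142-19363363), the partner of p52 in the non-canonical branch, had the largest log2 difference of the 9 members at 0 h. It had 20.5 and 23.8 CPM in files labelled Nat10-deficient, against 6.38 and 5.60 CPM in those labelled WT, from 429 and 509 counts against 123 and 99 counts. The difference was 1.88 ± 0.13 (adjusted p = 4.64e-33). Rel (ENSMUSG00000020275, chr11:23686847-23720970), the c-Rel subunit of lymphoid and myeloid cells, had 107 and 108 CPM in files labelled Nat10-deficient, against 41.4 and 40.2 CPM in those labelled WT, a log2 difference of 1.40 ± 0.06 (adjusted p = 1.26e-56). For both, as for all 9 members at 0 h, the files of the 2 labels did not overlap, and the share among all genes was not worked out. Nfkb2 (ENSMUSG00000025225, chr19:46292759-46300824) had 54.3 and 59.4 CPM in files labelled Nat10-deficient, against 28.1 and 27.8 CPM in those labelled WT. Its exons share 830 bases with genes of the opposite strand, AC114539.1 and Psd, and counting ignored strand, so reads of these cannot be told apart from its own. Nfkb1 (ENSMUSG00000028163, chr3:135290416-135397308) had 237 and 221 CPM in files labelled Nat10-deficient, against 139 and 141 CPM in those labelled WT. The log2 differences were 1.02 ± 0.07 for Nfkb2 (adjusted p = 4.54e-33) and 0.71 ± 0.04 for Nfkb1 (adjusted p = 1.67e-46). Rela (ENSMUSG00000024927, chr19:5687511-5698158), the main transactivating subunit, differed least among the subunits. It had 114 and 116 CPM in files labelled Nat10-deficient, against 93.8 and 101 CPM in those labelled WT, a log2 difference of 0.24 ± 0.05 (adjusted p = 1.56e-06) on the TMM scale and of -0.08 on the scale of long-lived mRNAs.

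Per exonic length, the order of the levels at 0 h was set by Nfkbia in cells of both labels, at 485 FPKM (TMM-scaled CPM per kilobase of exon) in those labelled Nat10-deficient and 222 FPKM in those labelled WT. Nfkbiz followed with 57.5 and 74.6 FPKM, in cells labelled Nat10-deficient and labelled WT, and then Rela with 37.4 and 31.7 FPKM. In cells labelled Nat10-deficient the order went on with Tnfaip3, Nfkbie, Nfkb1, Rel, Nfkb2 and Relb, at 31.7, 29.8, 19.0, 14.4, 12.4 and 5.70 FPKM. In cells labelled WT it was Tnfaip3, Nfkbie, Nfkb1, Nfkb2, Rel and Relb, at 21.2, 14.6, 11.6, 6.10, 5.47 and 1.54 FPKM. Neighbours in either order did not overlap between files. The order also rests on the deposited exonic lengths, from 1610 bases for Nfkbia to 12061 bases for Nfkb1. These count all annotated exons of a gene, and the lengths of the mRNAs in these cells were not measured. By 5 h Nfkbia was still first in both, at 49.7 FPKM in cells labelled Nat10-deficient and 153 FPKM in those labelled WT, while Rel had the lowest mean, at 0.648 and 0.811 FPKM. Under the Nat10-deficient label its files (0.5519 and 0.7442 FPKM) overlapped those of Tnfaip3 (0.7751 and 0.7436 FPKM), so the last place there was not settled. Relb, Nfkb2 and Nfkbie had higher levels at 5 h than at 0 h in cells labelled WT on this TMM scale, at 6.09, 16.9 and 22.9 FPKM. In cells labelled Nat10-deficient they had 1.22, 4.63 and 5.56 FPKM at 5 h. On the ERCC scale these 3 were not higher under the WT label, with means of 85.1%, 59.4% and 33.8% of the 0 h level at 5 h.

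**Figure D1:**
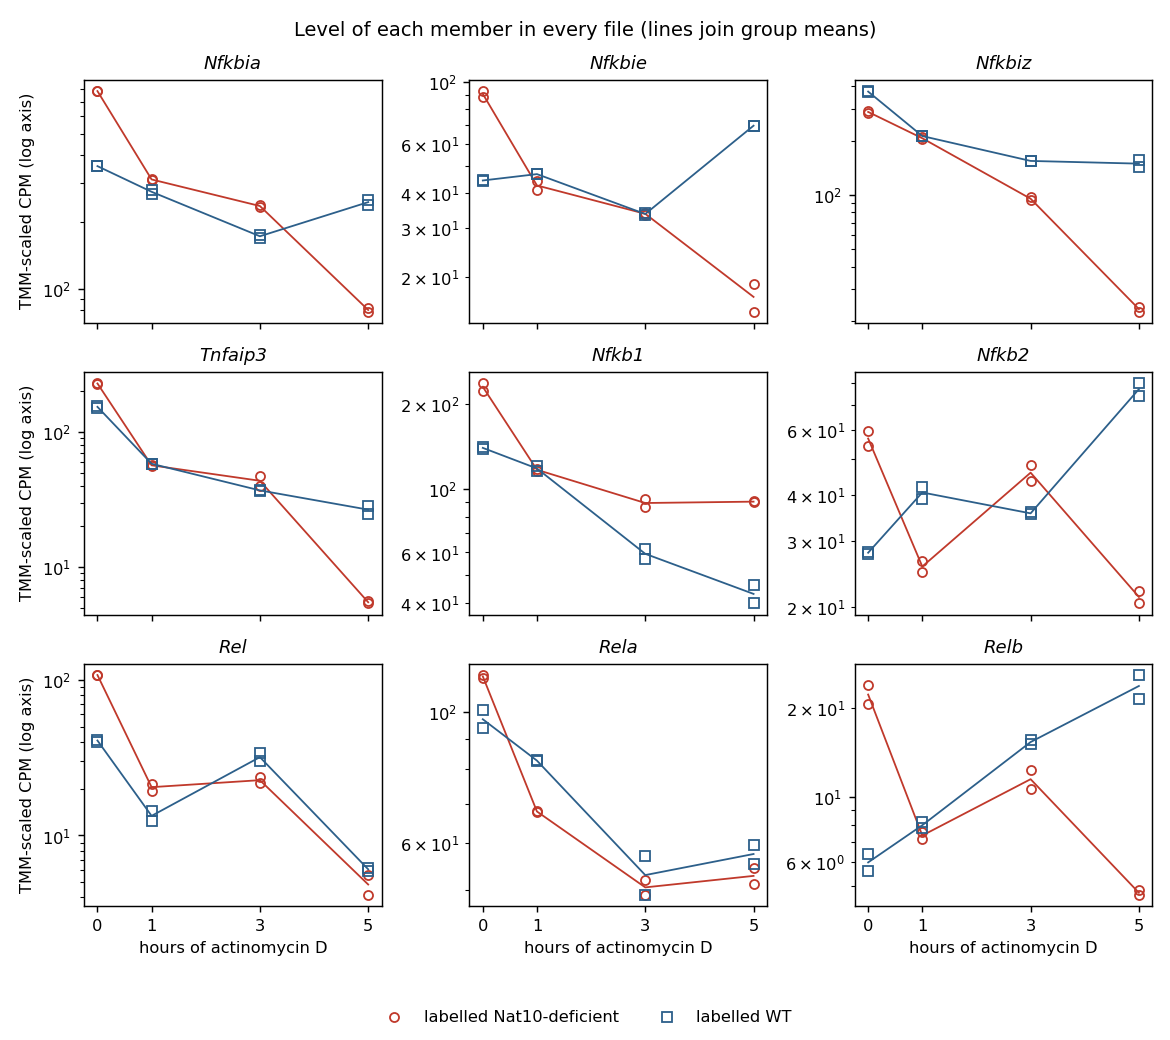
TMM-scaled CPM (log axis) of each member in every file against hours of actinomycin D, with circles for files labelled Nat10-deficient, squares for those labelled WT, and lines through the group means. Nfkbia at 0 h sits at 779 and 784 CPM (labelled Nat10-deficient), above 358 and 358 CPM (labelled WT), and by 5 h the order is turned round, with 81.3 and 78.7 CPM below 253 and 239 CPM; on the ERCC scale it is not turned round.

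After the block, all 9 members fell in cells labelled Nat10-deficient at 1, 3 and 5 h on the ERCC scale, which sets each gene against the spike-in RNA. In cells labelled WT 9, 8 and 8 fell at these times, and Relb did not pass at 3 and 5 h. Among all genes tested, 68.6%, 68.8% and 77% were called lower at 1, 3 and 5 h in cells labelled Nat10-deficient, and 55.7%, 52.6% and 63.6% in those labelled WT (edgeR quasi-likelihood F test). The median log2 changes of the members were -2.50, -3.31 and -5.13 in cells labelled Nat10-deficient, against -1.33, -1.85 and -2.67 for all genes. In cells labelled WT they were -1.18, -2.08 and -2.98, against -0.83, -0.91 and -2.03. On the TMM scale, which moved all genes by a log2 of 1.35, 1.88 and 2.72 in cells labelled Nat10-deficient and 0.94, 1.19 and 2.20 in those labelled WT, the 9 members labelled Nat10-deficient still fell at each time. In cells labelled WT on that scale 6, 7 and 6 members fell and 2, 2 and 3 rose, where 7937, 8337 and 8553 of the 25081 genes fell and 7450, 9803 and 7572 rose. On the scale of long-lived mRNAs 6, 7 and 6 members fell and 3, 2 and 2 rose, where 6752, 8068 and 12442 of all genes fell and 8486, 10030 and 4769 rose.

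Among the inhibitors, Tnfaip3 lost the largest share of its RNA by each time. Of the 0 h level of Tnfaip3, 9.69% and 9.76% was left at 1 h in files labelled Nat10-deficient, against 19.6% and 19.8% in those labelled WT. At 3 h 5.61% and 4.73% was left in files labelled Nat10-deficient, against 10.4% and 10.6% in those labelled WT. At 5 h 0.366% and 0.365% was left in files labelled Nat10-deficient, against 3.94% and 3.51% in those labelled WT. Tnfaip3 was thus the member with the least RNA left at 5 h in cells labelled Nat10-deficient, where it rested on 87 and 88 counts. For Nfkbia, 15.5% and 15.8% was left at 1 h in files labelled Nat10-deficient, against 40.2% and 39.3% in those labelled WT. At 3 h 8.40% and 8.02% was left in files labelled Nat10-deficient, against 21.2% and 20.8% in those labelled WT, and at 5 h 1.55% and 1.56%, against 15.1% and 14.5% in those labelled WT. The IκBα mRNA was thus lower relative to its own start in every file labelled Nat10-deficient than in every file labelled WT of the same time. Nfkbiz kept like shares at 1 h, with 27.7% and 28.3% in files labelled Nat10-deficient and 29.3% and 29.7% in those labelled WT. Its shares lay further apart later, at 8.84% and 9.07% against 17.9% and 18.1% in files labelled WT at 3 h, and at 1.17% and 1.29% against 8.85% and 8.29% in files labelled WT at 5 h. Nfkbie kept a mean of 18.4%, 10.1% and 2.85% at 1, 3 and 5 h in cells labelled Nat10-deficient, against 54.8%, 33.1% and 33.8% in those labelled WT, with like means at 3 and 5 h under the WT label.

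The subunit mRNAs did not share one course. For Rela, a mean of 23.2%, 11.9% and 6.99% was left at 1, 3 and 5 h in cells labelled Nat10-deficient, against 44.2%, 23.7% and 12.7% in those labelled WT. For Nfkb1, 20.0% and 20.2% was left at 1 h in files labelled Nat10-deficient, against 44.5% and 43.4% in those labelled WT. At 5 h the same gene kept 5.88% and 6.16% in files labelled Nat10-deficient, against 7.03% and 6.16% in those labelled WT, so that the files of the 2 labels nearly met. Rel fell steeply within 1 h, to a mean of 7.46% ± 0.495 in files labelled Nat10-deficient and 17.0% ± 1.51 in those labelled WT (SD, n = 2 each). At 3 h Rel stood at 6.01% and 5.44% in files labelled Nat10-deficient, against 36.1% and 32.1% in those labelled WT, which is above the 1 h value under the WT label. By 5 h Rel was at 0.572% and 0.802% in files labelled Nat10-deficient and 3.09% and 3.30% in those labelled WT, from 64 and 91 counts and from 35 and 30 counts.

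Nfkb2 and Relb, the pair of the non-canonical branch, stood nearest their 0 h level of the 9 members under the WT label on the ERCC scale. Relb had the widest gap between the labels at each time, by the ratio of the means. Under the WT label 4008, 6399 and 2757 of all 25081 genes were called higher at 1, 3 and 5 h on this scale. A share left there is thus not a measure of loss alone. All 6 B cell markers rose, by a median log2 of 2.71, 4.26 and 3.59, while 9 of 10 HSC markers fell. The part of other cells was not tested. Of Nfkb2, 18.4% and 17.0% was left at 1 h in files labelled Nat10-deficient, against 72.3% and 79.0% in those labelled WT. At 3 h it was 21.0% and 22.9% in files labelled Nat10-deficient, against 55.2% and 56.3% in those labelled WT, and at 5 h 5.80% and 5.57%, against 61.4% and 57.5% in those labelled WT. Relb stood at 13.4% and 12.7% at 1 h in files labelled Nat10-deficient, against 67.5% and 71.6% in those labelled WT. At 3 h it was 13.1% and 14.9% in files labelled Nat10-deficient, against 110% and 113% in those labelled WT, and at 5 h 3.13% and 3.38%, against 76.5% and 93.7% in those labelled WT. Under the WT label its change was 0.15 ± 0.17 at 3 h (log2, adjusted p = 0.403) and -0.25 ± 0.16 at 5 h (adjusted p = 0.158). No file pair of these 2 genes overlapped between labels at any of the 3 times, and neither did those of the other members. The 2 files of a group name the same alignment and lie close together. Such separation is thus not particular to these 2 genes, and its share among all genes was not worked out.

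**Figure D2:**
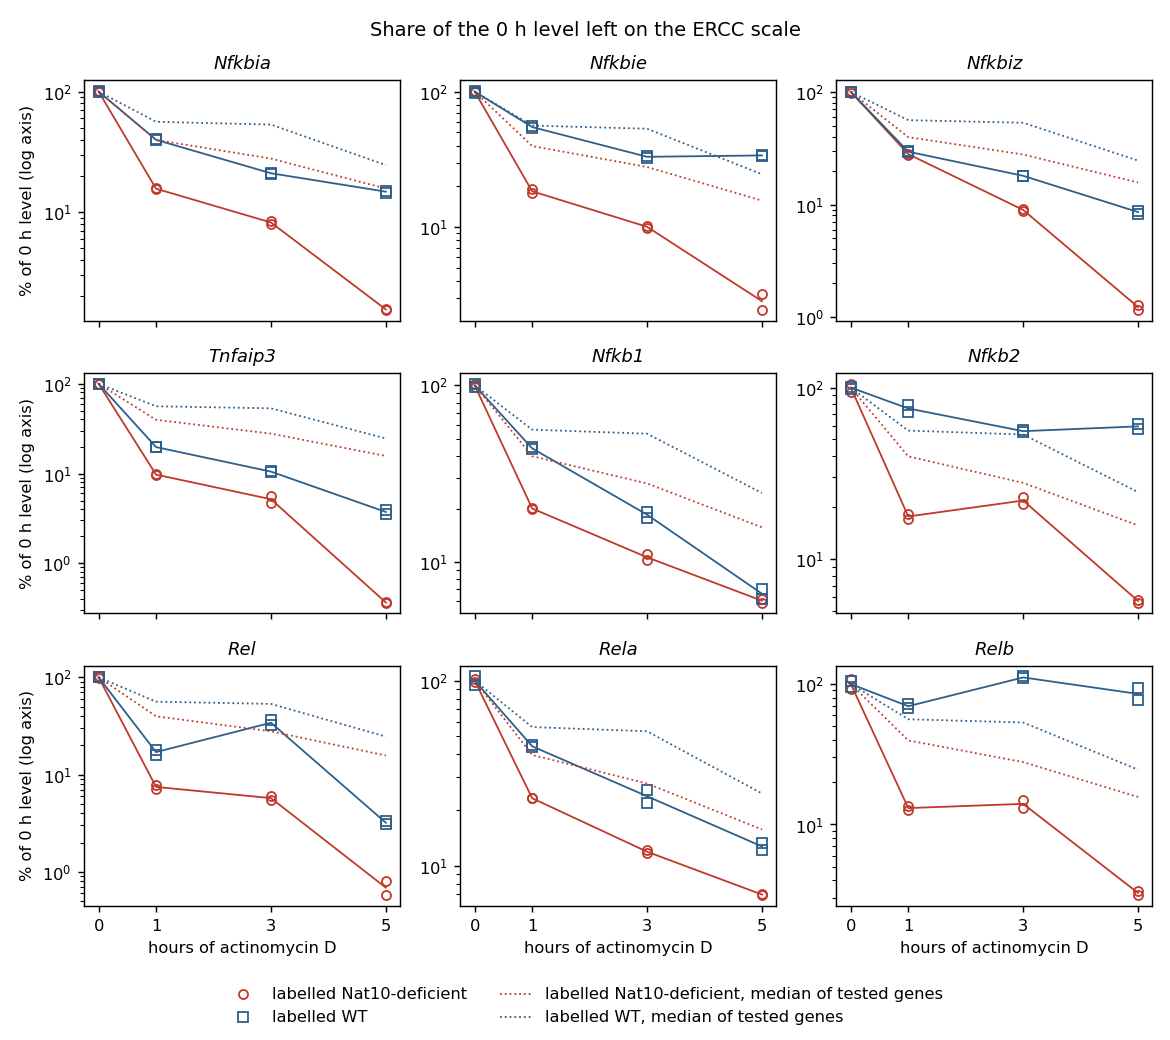
Percent of the 0 h level left on the ERCC scale (log axis) against hours of actinomycin D, for each file, with dotted lines for the median of the tested genes. Tnfaip3 reaches 0.366% and 0.365% at 5 h in files labelled Nat10-deficient, against 3.94% and 3.51% in those labelled WT, while Relb labelled WT is at 67.5% and 71.6% at 1 h and at 110% and 113% at 3 h; scaled by TMM, Nfkbie, Nfkb2 and Relb labelled WT are above their 0 h level at 5 h.

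Read as a straight line over the 4 times, 9 of the 9 members fell in cells labelled Nat10-deficient and 8 of the 9 in cells labelled WT. The shares of all genes called falling were 71.3% and 57.4% in cells labelled Nat10-deficient and labelled WT. The SE of a slope here is worked back from the F statistic and can be too small where the fall is steep. An apparent half-life is the inverse of such a slope, and each time is a separate sort. Tnfaip3 had the shortest, at 0.694 h in cells labelled Nat10-deficient (slope -1.44 ± 0.01 log2 per hour, SE) and 1.18 h in those labelled WT (slope -0.85 ± 0.01). Rel followed in cells labelled Nat10-deficient with 0.812 h (slope -1.23 ± 0.02), against 1.27 h in those labelled WT (slope -0.79 ± 0.03). For Nfkbiz it was 0.830 h in cells labelled Nat10-deficient and 1.57 h in those labelled WT, and for Nfkbia 0.929 h and 1.94 h. These short values stand beside medians over all tested genes of 2.08 h in cells labelled Nat10-deficient and 2.75 h in those labelled WT. The 37 mRNAs taken as long-lived fell too, with median slopes of -0.338 in cells labelled Nat10-deficient and -0.272 in those labelled WT. By 1 h their median log2 change was -1.251 and -1.135 under these labels. A fall shared with them thus lies within the half-lives given here, which are not lifetimes of the mRNAs alone. Nfkbie had 1.09 h in cells labelled Nat10-deficient and 3.35 h in those labelled WT, Nfkb1 1.38 h and 1.33 h, and Rela 1.44 h and 1.78 h. Nfkb2 had 1.49 h in cells labelled Nat10-deficient and 6.78 h in those labelled WT. Relb had 1.22 h in cells labelled Nat10-deficient and no half-life in those labelled WT, where its slope was 0.01 ± 0.03 (adjusted p = 1.00). With the files of a group summed, all 9 slopes labelled Nat10-deficient passed, as did 6 of those labelled WT, while Nfkbie (adjusted p = 0.105) and Nfkb2 (adjusted p = 0.527) no longer did. Scaled by TMM, the slopes labelled WT of Nfkbie, Nfkb2 and Relb were 0.10, 0.25 and 0.40, and on the scale of long-lived mRNAs those of Nfkb2 and Relb were 0.09 and 0.24.

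The times carried unequal weight in these lines. Without 5 h, the slopes labelled WT of Rel, Nfkbie and Nfkb2 were -0.37, -0.51 and -0.27, against -0.79, -0.30 and -0.15 with it. Without 0 h, the slopes labelled Nat10-deficient of Nfkb1, Nfkb2, Rela and Relb were -0.43, -0.41, -0.43 and -0.50, against -0.72, -0.67, -0.69 and -0.82 with it, and those labelled WT of Nfkbie and Nfkb2 were -0.17 and -0.08.

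**Figure D3:**
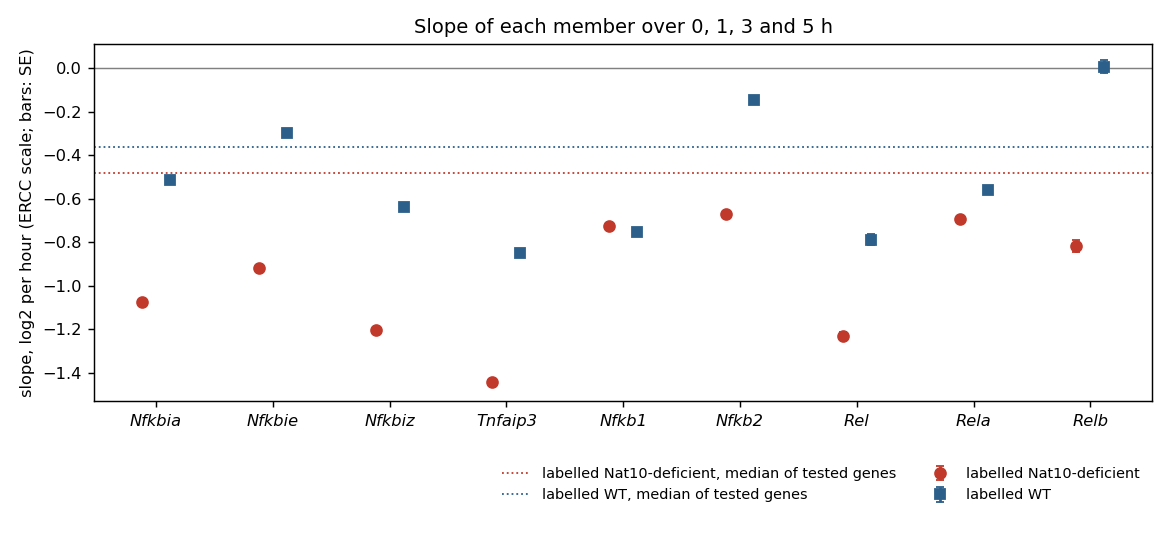
Slope of each member in log2 per hour on the ERCC scale (bars: approximate SE, worked back from the F statistic). Circles are for cells labelled Nat10-deficient and squares for those labelled WT, with dotted lines at the medians of all tested genes. All members but Nfkb1 have the lower slope under the Nat10-deficient label (scaled by TMM too, where Rela no longer passes), and Relb labelled WT sits at 0.01.

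The slopes were lower in cells labelled Nat10-deficient than in those labelled WT for 8 of the 9 members, where 32.1% of all genes were called lower and 15.7% higher, and the median difference was -0.56 log2 per hour for the members and -0.10 for all genes. Relb differed by -0.82 ± 0.04 (adjusted p = 3.04e-86), Nfkbie by -0.62 ± 0.02 (adjusted p = 6.20e-175) and Tnfaip3 by -0.59 ± 0.03 (adjusted p = 4.01e-99). Nfkbiz differed by -0.57 ± 0.01, Nfkbia by -0.56 ± 0.01 and Nfkb2 by -0.52 ± 0.02, all past the threshold. Rel differed by -0.44 ± 0.05 (adjusted p = 2.24e-18) and Rela by -0.13 ± 0.02 (adjusted p = 2.49e-12). Nfkb1, which encodes p105 and p50, was the exception, with 0.03 ± 0.02 (adjusted p = 0.169). The Nfkb1 value depended on the times, being -0.21 without 5 h and 0.25 without 0 h, and the Rela value was 0.02 without 0 h and -0.29 without 5 h. Without 5 h, Tnfaip3, Nfkbiz, Nfkb2 and Rel differed by -0.29, -0.35, -0.33 and -0.84, and without 0 h Nfkb2 and Rel differed by -0.33 and -0.26. With straight lines fitted over the 16 files 6 of the 9 were lower, and Rel (adjusted p = 0.158) and Rela (adjusted p = 0.42) no longer passed, while the calls among all genes fell to 2336, against 11982. In the edgeR fit of summed files, also of straight lines, 0 of the 9 slope differences passed and 7 had an unadjusted p under 0.05, and the 8 named as lower had values of -0.88 to -0.15 there.

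At 1 h the genotype differences on the TMM scale were small. Of the 9 members 2 were higher and 2 lower in cells labelled Nat10-deficient, where 32.4% and 31.8% of all genes were called in these directions. Nfkbia (0.18 ± 0.03, adjusted p = 2.95e-08) and Rel (0.60 ± 0.10, adjusted p = 1.04e-07) were higher on that scale, although on that of long-lived mRNAs Nfkbia was lower (-0.31) and Rel did not pass (adjusted p = 0.371). Nfkb2 (-0.66 ± 0.08) and Rela (-0.29 ± 0.05) were lower, with the reverse direction on the ERCC scale (5.08 and 5.45). Which members counted as changed rested on the scale at this time, with 2 higher and 6 lower by DESeq2 size factors, 0 and 8 on the scale of long-lived mRNAs and 9 and 0 on that of ERCC spike-ins. All genes moved with the scale too, with 7306 higher and 8805 lower by DESeq2 size factors, 4732 and 11836 on the scale of long-lived mRNAs and 21190 and 13 on that of ERCC spike-ins. With files summed 0 of the 9 passed, with 0 at an unadjusted p under 0.05 (edgeR), and Nfkb2 and Rela had values of 0.32 and 0.019.

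At 3 h 4 members were higher and 3 lower in cells labelled Nat10-deficient, against 30.4% and 37% of all genes. Nfkbiz again had the lower level, with 93.3 and 97.2 CPM in files labelled Nat10-deficient, against 154 and 155 CPM in those labelled WT. Its log2 difference was -0.70 ± 0.05 (adjusted p = 1.45e-33), it was the one member to pass with files summed (-1.29, adjusted p = 0.0308, where 3 of the 9 had an unadjusted p under 0.05), and on the ERCC scale it was 4.76. Nfkb1 (0.59 ± 0.06), Nfkbia (0.45 ± 0.04), Nfkb2 (0.37 ± 0.09) and Tnfaip3 (0.23 ± 0.08) were higher on the TMM scale, and on that of long-lived mRNAs lower, with log2 differences of -0.52 to -0.16. By DESeq2 size factors Nfkb2 no longer passed (0.12, adjusted p = 0.249), and Tnfaip3 was -0.01. Tnfaip3 also no longer passed without the first file labelled Nat10-deficient at 3 h (0.13, adjusted p = 0.235) or without either file labelled WT (0.18 and 0.21). Rel (-0.49 ± 0.10) and Relb (-0.42 ± 0.16) were lower, except on the ERCC scale, and Relb did not pass without the first file labelled Nat10-deficient (-0.31, adjusted p = 0.127) or without the second labelled WT (-0.43, adjusted p = 0.0516).

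Between 0 and 5 h 5 members, Nfkbia, Nfkbie, Tnfaip3, Nfkb2 and Relb, turned from higher to lower on the TMM scale (not on the ERCC scale), while Nfkbiz was lower and Nfkb1 higher at both times. In cells labelled Nat10-deficient 6 of the 9 members were lower and 1 higher, against 30.1% and 34.2% of all genes, and the member median was -1.87 (log2) beside 0.10 for all genes. Nfkbiz had 22.5 and 24.0 CPM in files labelled Nat10-deficient, against 155 and 143 CPM in those labelled WT, a log2 difference of -2.68 ± 0.06 (adjusted p = 1.20e-109). Relb had 4.64 and 4.82 CPM in files labelled Nat10-deficient, against 21.5 and 25.9 CPM in those labelled WT, a log2 difference of -2.31 ± 0.17 (adjusted p = 1.17e-29). Tnfaip3 had 5.60 and 5.37 CPM in files labelled Nat10-deficient, against 28.4 and 24.8 CPM in those labelled WT, a log2 difference of -2.29 ± 0.14 (adjusted p = 2.01e-39). Files of the 2 labels did not overlap at 5 h for these 3 genes, nor for any other of the 9 members, and the share among all genes was not worked out. Nfkbie (-2.04 ± 0.09), Nfkb2 (-1.87 ± 0.09) and Nfkbia (-1.62 ± 0.04) were lower too, and Nfkb1 was the one member that was higher, with 90.2 and 90.8 CPM in files labelled Nat10-deficient, against 46.1 and 39.7 CPM in those labelled WT (1.07 ± 0.07, adjusted p = 4.21e-34). Rel (-0.32 ± 0.23, adjusted p = 0.227) and Rela (-0.12 ± 0.08, adjusted p = 0.166) did not pass. On the ERCC scale all 9 were higher in cells labelled Nat10-deficient at 5 h, by a log2 of 2.96 to 6.71, where all genes moved by a log2 of 5.59, and with files summed 0 of the 9 passed and 7 had an unadjusted p under 0.05.

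**Figure D4:**
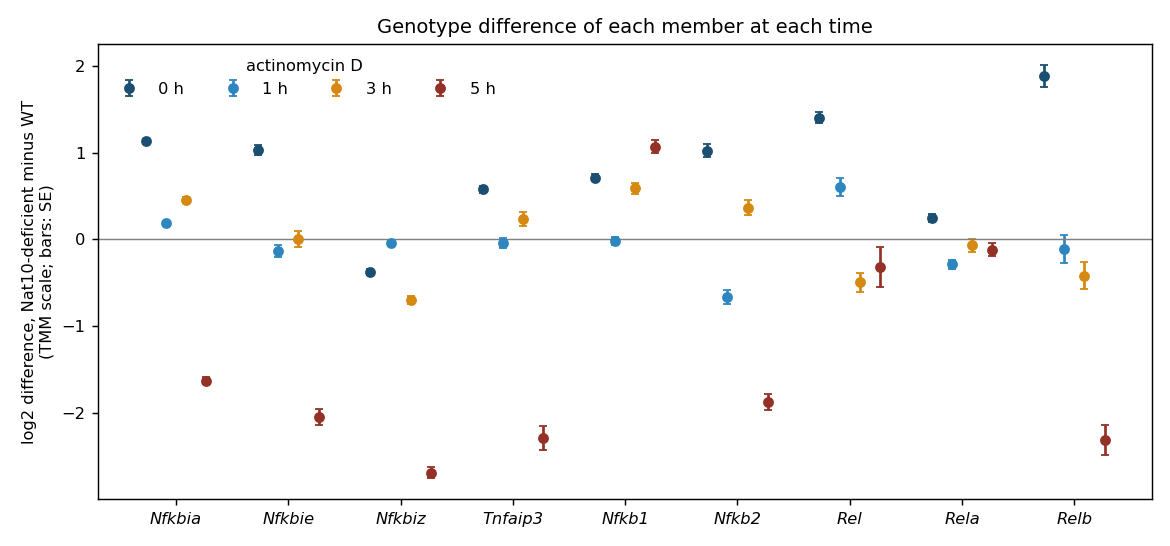
Log2 difference of each member between cells labelled Nat10-deficient and labelled WT at 0, 1, 3 and 5 h on the TMM scale. Bars are approximate SE, worked back from the F statistic. At 0 h 8 members lie above 0, and at 5 h Nfkbia, Nfkbie, Nfkbiz, Tnfaip3, Nfkb2 and Relb lie at -1.62 or below while Nfkb1 lies at 1.07; on the ERCC scale all these values lie above 0.

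On the TMM scale the level of Relb after the block had the same order over the times as the immunoglobulin share. Those of Nfkb2 and Nfkbie followed it in part. On the ERCC scale Relb labelled WT had means of 69.5%, 111% and 85.1% of its 0 h level at 1, 3 and 5 h, which is not the order of the immunoglobulin share. Under the WT label, where that share was highest at 5 h, Relb had 6.38 and 5.60 CPM at 0 h, 7.83 and 8.18 CPM at 1 h, 15.1 and 15.5 CPM at 3 h and 21.5 and 25.9 CPM at 5 h. Under the Nat10-deficient label, where the share peaked at 3 h, Relb after the block had 7.56 and 7.21 CPM at 1 h, 10.6 and 12.3 CPM at 3 h and 4.64 and 4.82 CPM at 5 h. Nfkb2 likewise had 26.6 and 24.7 CPM at 1 h, 43.6 and 48.3 CPM at 3 h and 22.1 and 20.4 CPM at 5 h under the Nat10-deficient label. Under the WT label Nfkb2 was at 28.1 and 27.8 CPM at 0 h, 39.1 and 42.1 CPM at 1 h, 35.4 and 35.9 CPM at 3 h and 80.4 and 74.1 CPM at 5 h, so it was lower at 3 h than at 1 h while the share was higher. Nfkbie labelled WT had 44.5 and 44.3 CPM at 0 h, 46.7 and 46.9 CPM at 1 h, 33.3 and 34.0 CPM at 3 h and 69.9 and 69.7 CPM at 5 h, again with 3 h against the order of the share. Nfkbie labelled Nat10-deficient was lower at each later time, with 41.0 and 44.2 CPM at 1 h, 33.9 and 33.5 CPM at 3 h and 15.0 and 18.9 CPM at 5 h, and had no peak at 3 h. The 0 h files labelled Nat10-deficient stood outside the order of Relb too, with the highest Relb level of that label at a share of 6.44%. The summed TMM-scaled level of 8 plasma cell markers ran beside the share, at most 37320, 50940, 182000 and 25440 CPM at 0, 1, 3 and 5 h under the Nat10-deficient label and 18290, 148500, 445400 and 930900 CPM under the WT label, with Mzb1 at 0 in WT at 0 h. For 6 B cell markers the highest sums were 78.2, 108, 297 and 52.1 CPM under the Nat10-deficient label and 49.6, 306, 894 and 1746 CPM under the WT label, with Pax5 at 0 in WT at 0 h. The part of these cells in the members' values was not tested.

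**Figure D5:**
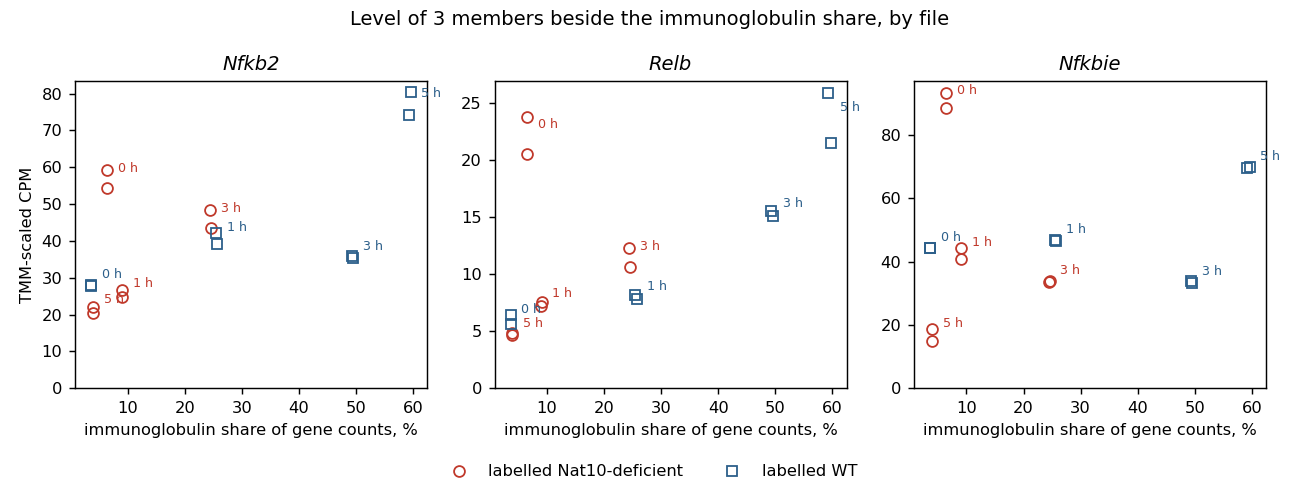
TMM-scaled CPM of Nfkb2, Relb and Nfkbie in each file against the immunoglobulin share of gene counts in percent, with the hours beside the points. The 5 h files labelled WT, at a mean share of 59.5%, have the highest Nfkb2 level, and the 0 h files labelled Nat10-deficient lie high at a share of 6.44%.

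Over the 8 group means of log2 TMM-scaled CPM the members fell into patterns that can only be described, since the groups share a time course. Pearson's r was 0.94 between Nfkbia and Tnfaip3, 0.92 between Nfkbiz and Tnfaip3, and 0.90 between Nfkb2 and Relb. Nfkb1 and Nfkb2, both precursors, had an r of -0.23, and Nfkb1 and Rela 0.82. Among 8077 genes of sufficient level the pattern most like that of Nfkbia was that of Arid4a (r = 0.99), followed by Plekhm1 and Ppp1r18. For Tnfaip3 these were Id1 (r = 0.99), Sap30bp and Zfp212, for Nfkbiz Pdlim2 (r = 0.99), Ptpn6 and Gata3, and for Nfkbie Bcl2l11 (r = 0.97), Atp2b1 and Atf4. For the subunits they included Bcor and Capza2 (Nfkb1), Hmbox1, Ahnak and Arf4 (Nfkb2), Trp53bp2, Fbxo42 and Gna11 (Rel), and Ubap1, Vapa and Emsy (Rela). Relb was most like Arf4 (r = 0.96), Traf1 (r = 0.95) and Il6ra (r = 0.94), of which Traf1 encodes an adaptor of TNF receptors and is itself an NF-κB target.

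The rest of the pathway is given by role, in lists that were also chosen with earlier results of these data known. Of 37 known target genes tested, 24 were higher and 7 lower in cells labelled Nat10-deficient at 0 h, with a median log2 difference of 0.68, beside 36% and 24.2% of all genes and a median of 0.10. At 5 h 5 were higher and 26 lower, with a median of -1.37, beside 34.2% and 30.1% of all genes and a median of 0.10 (TMM scale). Plek (1.32 ± 0.04), Ehd1 (1.32 ± 0.04) and the adhesion receptor gene Cd44 (1.04 ± 0.03) were higher at 0 h, while the chemokine gene Ccl2 was lower (-1.82 ± 0.08). At 5 h the activation marker Cd69 (-3.60 ± 0.06), the adhesion gene Icam1 (-2.09 ± 0.05) and the chemokine gene Ccl5 (-3.69 ± 0.12) were lower, and Sod2, the mitochondrial superoxide dismutase, was higher (1.19 ± 0.04). Slopes were lower in cells labelled Nat10-deficient for 28 of these 37 and higher for 2, with a median of -0.41 log2 per hour, beside 32.1% lower, 15.7% higher and a median of -0.10 for all genes. The early feedback genes Irf1 and Ier3 fell under both labels, Irf1 by 1.35 ± 0.01 log2 per hour in cells labelled Nat10-deficient and by 1.16 ± 0.01 in those labelled WT. On the scale of long-lived mRNAs 22 of the 37 were higher and 9 lower at 0 h and 4 higher and 27 lower at 5 h, while on the ERCC scale 37 and 31 were higher at these times and 0 lower, Ccl2, Cd69, Icam1 and Ccl5 among the higher.

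The next 3 lists are read beside 36% of all genes higher and 24.2% lower at 0 h and 34.2% higher and 30.1% lower at 5 h, to which the kinases at 0 h came close. Of 24 receptors and adaptors tested, 10 were higher and 2 lower at 0 h in cells labelled Nat10-deficient, and 5 were higher and 13 lower at 5 h. Traf1 had a log2 difference of 1.29 ± 0.08 at 0 h and -2.02 ± 0.11 at 5 h. Its likeness to Relb was found from these same group means, so a turn shared with Relb is no separate result. Bcl10, a scaffold of antigen receptor signalling, also differed in sign between the times, with 0.51 ± 0.04 at 0 h and -0.82 ± 0.07 at 5 h. Of 22 kinases and ubiquitin factors, 8 were higher and 6 lower at 0 h and 11 and 7 at 5 h. Map3k14, the kinase NIK that drives processing of p100, was higher at 0 h (1.14 ± 0.16), and Map3k8, the kinase bound by p105, was lower at 0 h (-0.50 ± 0.07) and at 5 h (-2.25 ± 0.16). Of 22 other inhibitors, 7 were higher and 8 lower at 0 h and 9 and 9 at 5 h. Nfkbid, which encodes the nuclear inhibitor IκBNS, was lower at 0 h (-1.14 ± 0.04) and at 5 h (-2.54 ± 0.11), as Nfkbiz was. Nfkbib, encoding the cytoplasmic IκBβ, was higher at 0 h (0.65 ± 0.06). On the ERCC scale all the receptors, kinases and inhibitors of these 3 lists were higher at 0 h. At 5 h on that scale 22 of the 24 receptors and adaptors were higher and 2 lower, and all the kinases and other inhibitors were higher, with Traf1 at 3.63, Bcl10 at 4.83, Map3k8 at 3.39 and Nfkbid at 3.11. On the scale of long-lived mRNAs 8 receptors and adaptors were higher and 10 lower at 0 h, as were 2 and 14 kinases and ubiquitin factors and 4 and 15 other inhibitors, with the genes named here in the same direction as by TMM.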

How the data were processed

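The authors' deposited files give counts: whole numbers of paired fragments over the exons of a gene, taken with featureCounts 1.6.3 and ignoring strand, per the file headers. STAR, DESeq2 and build GRCm39 are named in the submitters' processing notes. Of the 55506 entries in a file, 55414 are genes and 92 ERCC spike-ins, and 52081 gene identifiers (94.0%) matched a symbol in a GENCODE mouse table. The deposited exonic length of each gene was used for FPKM alone.

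Counts were fitted in R 4.3.3 with the quasi-likelihood F test of edgeR 4.0.16, as 8 group means over 16 files after filterByExpr. Genotype differences used TMM factors, which are relative to the other genes, and courses and slopes used library sizes from summed ERCC counts. Adjusted p-values (Benjamini-Hochberg) are over 25081 genes, with a threshold of 0.05. Standard errors were worked back from the F statistic. They are approximate and can be too small where a change is large. For Rel those of the slopes were 0.0184 labelled Nat10-deficient and 0.0266 labelled WT, and that of the slope difference was 0.0493. Alternatives were DESeq2 1.42.0, other scalings, no filter, a replicate block, left-out files and files summed per group. The fit of summed files had 8 libraries, straight lines in hours and 4 residual degrees of freedom over 25776 genes. Its common coefficient of variation by edgeR was 0.966 about these lines, against 0.0241 about group means from the file pairs. Departures from a straight line count into the first value and not into the second. Scripts were tested on simulated data. Counts of PCR products without molecular identifiers cover counting error only.

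The members and all gene lists were chosen with earlier results of these data known. Named genes are the members, up to 4 genes per list and comparison with the smallest p past the threshold, of which the text gives a selection, and the 3 genes per member with the highest Pearson correlation over the 8 group means (prior count 2, mean log2 CPM of at least 3). A sort at 4 h named in the protocol was not analysed here. Promoter windows and 3′UTRs are of GRCm38, gene positions of GRCm39. A few items, among them 1 sequence and 1 gene of like pattern, are not reported here.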

Additional observations from a re-analysis of the deposited data

Results flagged for a closer look

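The slopes of 8 members over the 4 times differed between the labels by a test of the interaction itself (edgeR quasi-likelihood F test, ERCC scale, cells labelled Nat10-deficient minus labelled WT). The differences in log2 per hour were -0.823 for Relb, -0.620 for Nfkbie, -0.593 for Tnfaip3, -0.568 for Nfkbiz, -0.560 for Nfkbia, -0.523 for Nfkb2, -0.444 for Rel and -0.132 for Rela. All 9 slopes labelled Nat10-deficient passed below 0, and of those labelled WT only that of Relb did not pass. The p-values rest on file pairs that name the same alignment. With straight lines over the 16 files Rel and Rela no longer passed, with files summed 0 of the 9 passed and 7 had an unadjusted p under 0.05 (edgeR), and Rela was 0.018 without 0 h. Immunoglobulin shares and cell type markers changed over the same hours, and their part in these differences was not tested.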

How the results depend on the processing

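The fall of all 9 members in cells labelled Nat10-deficient, and its slopes, kept direction and call under every alternative run for them, and the DESeq2 test and the replicate block changed no member's call (117 values each). With the replicate block 9, 4, 7 and 7 members passed at 0, 1, 3 and 5 h, as without it. Replicate numbers did not pair the files: over 28 pairs of groups and 4138 genes same-numbered deviations correlated by -0.02 to 0.11. TMM without immunoglobulin genes, the summed fits at 1, 3 and 5 h and the slopes without a time were added after the data were seen.

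The number of members past the threshold in the genotype differences was 9, 4, 7 and 7 at 0, 1, 3 and 5 h, and 0, 0, 1 and 0 with files summed, where in all genes 0, 0, 927 and 0 passed and 1276, 2326, 4968 and 4146 had an unadjusted p under 0.05. At 1 h it was 8 by DESeq2 size factors, 9 on the ERCC scale and 8 on long-lived mRNAs. For the slope difference it was 8, then 6 with straight lines over 16 files (2336 of all genes passed, against 11982) and 0 with files summed, also by straight lines (26 of all genes). The cause of these changes was not tested.

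On the ERCC scale genotype differences turned up for Nfkbiz at 0 h (5.77), at 1 h for Nfkbie (5.60), Nfkbiz (5.70), Tnfaip3 (5.70), Nfkb1 (5.72), Nfkb2 (5.08), Rela (5.45) and Relb (5.62), at 3 h for Nfkbiz (4.76), Rel (4.96), Rela (5.39) and Relb (5.04), and at 5 h for Nfkbia (4.02), Nfkbie (3.60), Nfkbiz (2.96), Tnfaip3 (3.36), Nfkb2 (3.78), Rel (5.32), Rela (5.52) and Relb (3.33). That scale moves all genes by 6.13, 5.71, 5.44 and 5.59 at the 4 times. On long-lived mRNAs, which move them by -0.32, -0.49, -0.75 and -0.35, Rela at 0 h (-0.077), Nfkbia at 1 h (-0.31) and Nfkbia (-0.30), Nfkbie (-0.75), Tnfaip3 (-0.52), Nfkb1 (-0.16) and Nfkb2 (-0.39) at 3 h turned down. There the changes labelled WT turned up for Nfkbie (0.20), Nfkb2 (0.66) and Relb (0.53) at 1 h, Nfkb2 (0.40) at 3 h and Nfkb2 (0.68) and Relb (1.18) at 5 h, as did the Nfkb2 slope (0.091). By TMM they turned up for Nfkbie (0.075), Nfkb2 (0.54) and Relb (0.41) at 1 h, Nfkb2 (0.35) at 3 h and Nfkbie (0.65), Nfkb2 (1.47) and Relb (1.97) at 5 h, with slopes of 0.10 for Nfkbie and 0.25 for Nfkb2.

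With files summed, Nfkbiz at 0 h was 0.10, Nfkbie, Tnfaip3, Nfkb1, Nfkb2, Rela and Relb at 1 h were 0.39, 0.30, 0.48, 0.32, 0.019 and 0.79, Nfkbia, Nfkbie, Tnfaip3 and Nfkb2 at 3 h were -0.32, -0.70, -0.66 and -0.56, and the Nfkb1 slope difference was -0.0023. Without a filter, Nfkbiz, Tnfaip3 and Nfkb1 at 1 h were 0.0054, 0.0074 and 0.029 and Rela at 3 h 0.024. TMM without immunoglobulin genes gave 0.024, 0.026 and 0.048 for Nfkbiz, Tnfaip3 and Nfkb1 at 1 h, -0.00039 for Nfkbie at 3 h and 0.042 and 0.24 for Rel and Rela at 5 h. DESeq2 size factors gave -0.25 for Nfkbie and -0.014 for Tnfaip3 at 3 h, and only 4 libraries -0.041 for Nfkbie. The slope difference of Nfkb1 was -0.00034 with straight lines over 16 files and -0.21 without 5 h, and that of Rela 0.018 without 0 h.

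Leaving out 1 file gave -0.043 to 0.014 for Nfkb1 at 1 h, -0.059 to 0.012 for Nfkbie at 3 h, -0.22 to 0.013 for Rela at 3 h, -0.16 to 0.10 for Rela at 5 h, -0.020 to 0.035 for the Relb slope labelled WT, -0.19 to -0.08 for Nfkbie at 1 h, 0.13 to 0.34 for Tnfaip3 at 3 h and -0.52 to -0.31 for Relb at 3 h. Depth limits Rel at 5 h, with 64 and 91 counts in files labelled Nat10-deficient and 35 and 30 in those labelled WT.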
